A study of Mus musculus with 764 samples.

Results

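Among single CD4+ T cells of the spleen that had been sorted for an IL-10 reporter, 77 cells on plate p2 and 25 on plate p1 carried at least 10 reads of Ccr7, and these Ccr7-expressing cells are described here across all genes. They were chosen by 3 read counts per cell, namely at least 160000 reads over gene rows, 0 reads of Foxp3 and at least 10 reads of Ccr7, and made up 27.6% (95% exact binomial interval, 23.1% to 32.4%) of the 370 spleen cells that met the first pair of conditions, in a series of 764 cells. The comparison is with the 64.1% of the same 370 cells that had 0 reads of Ccr7, of which 71 lay on p2 and the others on p1, and the remaining 31 cells had 1 to 9 reads. All cells came from IL-10eGFP Foxp3mRFP double reporter mice that had received repeated injections of an antibody against CD3, which makes T cells that produce IL-10 more frequent. Single cells were sequenced with SMART-seq2, which reads whole transcripts and does not tag single molecules. Every mouse was treated, so no untreated cell was analysed here, and the labels give neither the age of the animals nor which cell came from which animal. Each cell is therefore 1 value from a spleen sample of unknown animal number, no test between the groups of cells was possible, and no comparison has a replicate check. Log2 ratios and mean differences were computed within each of the 2 plates (p1 and p2) named in the labels and then averaged over them. Shares of cells, and medians and ranges of levels, cover both plates together unless a plate is named, so plate and group are mixed in them. The plates differed in their share of Ccr7-expressing cells. Ccr7-expressing cells made up 46.7% of the cells without Foxp3 reads on p2 (38.9% to 54.6%) and 12.2% of those on p1 (8.05% to 17.5%). Intervals here and below cover counting error only.

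CCR7 is the receptor for the chemokines that draw T cells into the T cell zones of lymph nodes and spleen. It is carried by naive and central memory T cells and lost by most effector cells, which enter inflamed tissue with other receptors. The transcription factors TCF-1 (encoded by Tcf7) and LEF-1 maintain naive and central memory T cells, and Tcf7 and Lef1 usually go down together with Ccr7 when T cells become effector cells.

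Sequencing depth was close in both groups. Ccr7-expressing cells held 161141 to 596196 reads on genes (median 323744) and cells without Ccr7 reads 162801 to 622997 (median 344291). In the median, 3131 genes against 3389.5 were read per cell on p1 and 3393 against 3746 on p2, fewer in the Ccr7-expressing cells on both plates. All Ccr7-expressing cells had at least 10 reads of Cd3e and a read of Cd4, as had all cells of the comparison. Of the 6 B cell markers examined, 3, Ms4a1 and Blk among them, had no read in any Ccr7-expressing cell, and 4 cells had 10 reads of any of the 6. Of 14 myeloid and dendritic cell markers, 6 had no read, and 16.7% of Ccr7-expressing cells had 10 reads of any of them, against 35.02% in the comparison. The summed level of these 14 genes was 0 to 987 CPM per Ccr7-expressing cell (median 0) and 0 to 30073 CPM in the comparison (median 0). For the 6 markers of CD8+ T and natural killer cells the corresponding ranges were 0 to 680 CPM and 0 to 1844 CPM, for the 6 B cell markers 0 to 401.3 and 0 to 2471 CPM, and for 6 epithelial markers 0 to 427.4 and 0 to 772 CPM. CPM values are the reads of a gene scaled to the same total in every cell, and what part these other transcripts have in the results was not tested.

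The label of central memory-like cells rested on 6 genes. Ccr7 chose the cells and so is no check of the label. The other 5 were higher on each plate, but they were chosen with earlier results of these data known and are no independent check either. Ccr7 had 10 to 2594 reads per cell (median 244.5). The lowest values inside the limit were 10, 11, 19, 22 and 33 reads and the highest outside it 9, 8, 3, 2 and 2 reads, so few cells lay near the limit. Tcf7 ranged from 0 to 4161 CPM in Ccr7-expressing cells (median 858) and from 0 to 2129 CPM in cells without Ccr7 reads (median 0). At least 10 reads of Tcf7 were found in 93.1% of the Ccr7-expressing cells (86.4% to 97.2%) and in 30.8% of the others (24.99% to 37.1%). How much of the difference lay in this share and how much in the level was not computed. The log2 ratio of mean levels, with a pseudocount of 1 CPM, was 2.44 on p1 and 2.33 on p2. Lef1 ranged from 0 to 1550 CPM (median 250.6) against 0 to 781 CPM (median 0), with log2 ratios of 2.86 and 2.60. Both transcripts overlapped between the groups, because some cells of each group had none.

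The other markers were found in fewer cells. Bach2, a repressor that holds back effector differentiation, had 10 or more reads in 46.1% of Ccr7-expressing cells against 16.9% of the comparison. Its log2 ratio was 1.22 on p1 and 2.24 on p2. Bcl2, which protects long-lived lymphocytes from apoptosis, reached this level in 47.1% against 16.5% of cells, with ratios of 3.43 and 1.82. Itm2a, a membrane protein gene expressed in T cells, did so in 33.3% against 8.02% of cells, with ratios of 5.21 and 3.98. All 5 markers besides Ccr7 were thus higher on each plate, but most single cells did not reach 10 reads of all of them. Among the Ccr7-expressing cells, 8 had 10 reads of all 5, 27 of 4, 38 of 3, 18 of 2, 9 of 1 and 2 of none. In the comparison 83 cells (35.02%) had none of the 5 and no cell had all.

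**Figure D1:**
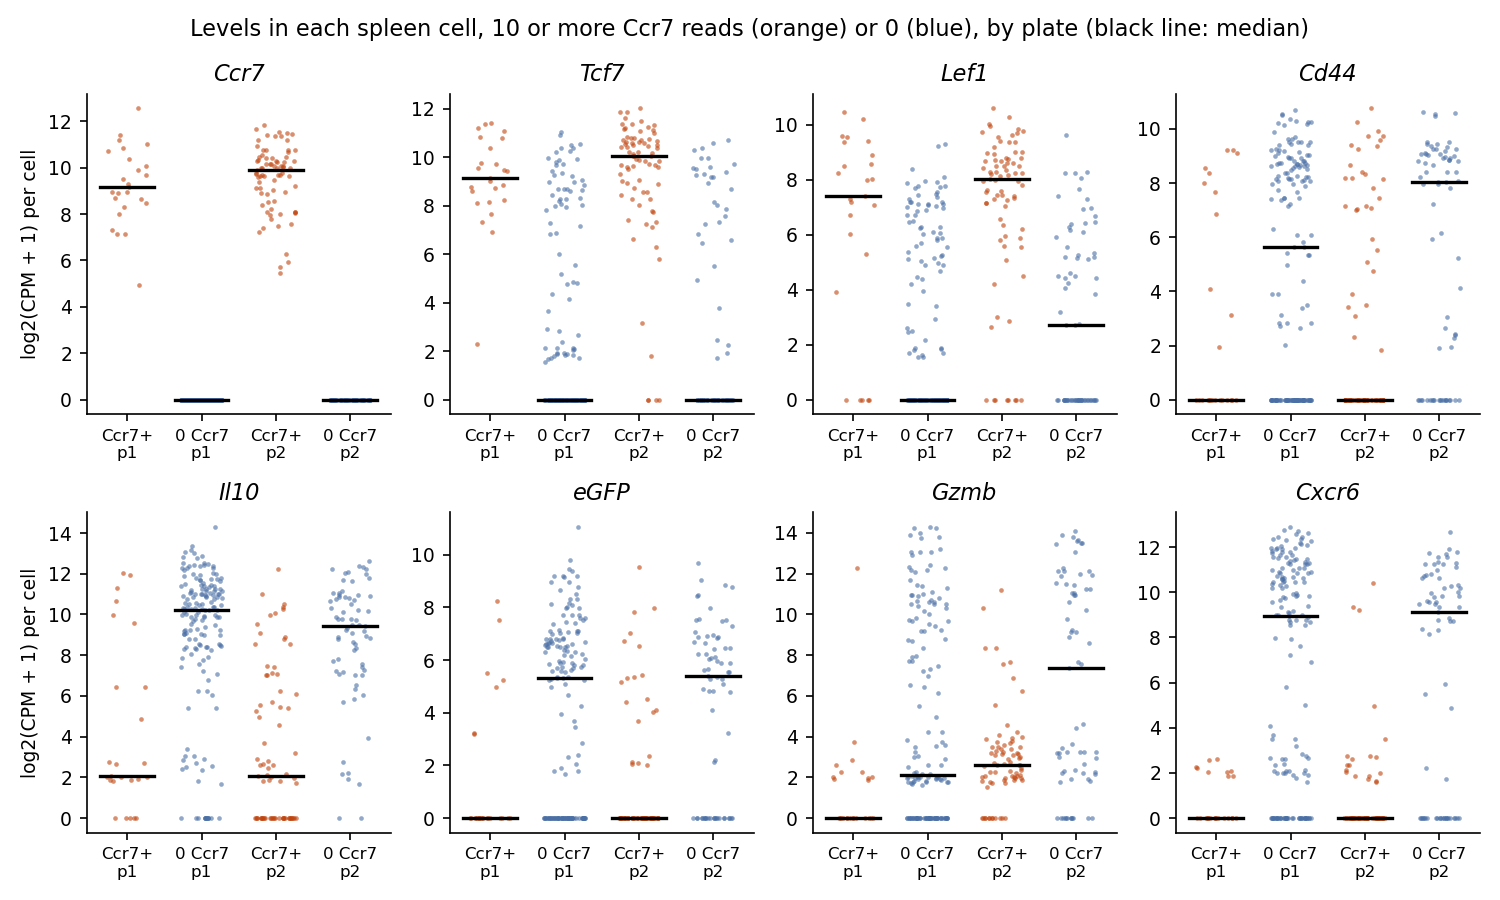
Level of 8 genes in each spleen cell as log2(CPM + 1), for cells with 10 or more Ccr7 reads (orange) and cells with 0 (blue) on plates p1 and p2; each point is a cell and the black line the median. Most Ccr7-expressing cells lie high for Tcf7 and Lef1 and at or near 0 for Il10, eGFP and Cxcr6, and the groups overlap for every gene but Ccr7.

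Of the 13 lymph node homing, egress and adhesion receptors measured besides Ccr7, 2 were higher on each plate and none was lower. Slamf6, a signalling receptor of lymphocytes, was 1 of them, with log2 ratios of 1.75 and 1.15 and 10 reads in 90.2% against 48.9% of cells. A gene is called measured here when its mean over the 4 groups of cells (2 groups on 2 plates) was at least 10 CPM, and higher or lower when its log2 ratio was at least 1 or at most -1 on each plate. By this rule 3.42% of the 8484 measured genes were higher and 4.10% were lower, which are the background against which counts of genes in a list stand. S1pr1, the receptor by which T cells leave lymphoid organs, had log2 ratios of 1.88 and 0.99 and so missed the rule on p2. Il7r, the survival receptor of resting T cells, had 1.36 and 0.77, and Gpr183, which guides cells within lymphoid organs, had 1.44 and 0.66. The integrin genes Itga4, Itgal and Itgb7 stayed between -0.56 and 0.31 in the mean of the plates.

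The transcription factors that maintain naive, central memory and stem-like T cells were higher as a group. Of 16 measured, 8 were higher on each plate, none was lower, and 15 had a positive log2 ratio on both plates; their median log2 ratio was 1.19, against 0.00 over all measured genes. Besides Tcf7, Lef1 and Bach2 these were Id3 (3.84 on p1 and 3.03 on p2), Klf3 (2.48 and 2.07), Myb (1.85 and 2.02), Foxo1 (1.44 and 1.12) and Klf2 (1.01 and 1.39). Klf2 is an activator of S1pr1 in resting T cells. Id3 had 10 reads in 23.5% of Ccr7-expressing cells and in 2.53% of the comparison, so it marked a part of them. Ets1, which T cells of all states express, differed little, with ratios of -0.02 and 0.23 and 10 or more reads in 99.02% and 99.6% of cells. Tcf7, Lef1 and Bach2 belong both to this list and to the markers of the label.

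Further transcripts known from naive T cells included Dapl1, whose ratio was the largest of all measured genes after Ccr7. Of 16 measured, 9 were higher on each plate and none was lower, with a median log2 ratio of 2.28. Itm2a and Bcl2 belong both to this list and to the markers of the label. Dapl1 had 10 or more reads in 27 Ccr7-expressing cells and in 1 cell of the comparison. Its summed reads over the Ccr7-expressing cells were 5332 (exact Poisson interval, 5190 to 5477), and its mean level on p1 was 253.6 against 2.62 CPM. No read of Dapl1 was found in the 71 comparison cells of p2, where its mean in Ccr7-expressing cells was 130.8 CPM. On p1 the highest comparison cell stood at 416.5 CPM, and 1 such cell can set the mean of a group. No fold is therefore given for p2. Igfbp4, a binding protein of insulin-like growth factors, had 10 reads in 25.5% against 1.27% of cells, with log2 ratios of 5.69 and 3.23. Actn1, an actin cross-linking protein, had them in 57.8% against 8.02%, and Nsg2 in 47.1% against 5.06%. Dapl1 and Igfbp4 shared 14 cells.

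Cd44, the adhesion receptor that is raised on memory cells, ranged from 0 to 1747 CPM (median 0) in Ccr7-expressing cells and from 0 to 1679 CPM (median 78.6) in the comparison, and was lower on each plate with log2 ratios of -1.07 and -1.11. At least 10 reads of Cd44 were found in 32.4% of Ccr7-expressing cells (23.4% to 42.3%) and in 54.9% of the others (48.3% to 61.3%). Reads of Cd44 alone do not separate central memory from naive cells, so the label was not settled by them, and the cells are called Ccr7-expressing below. Cd69, which is induced early after T cell receptor engagement and holds cells in tissue, was higher, with ratios of 1.51 and 1.32 and 10 reads in 41.2% against 19.8% of cells. Of the 17 activation and memory receptors measured, 1 was higher (Cd69) and 5 were lower on each plate.

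The 5 lower ones were Cd44, Cd38, Cd82 and the costimulatory receptor genes Tnfrsf4 (OX40) and Tnfrsf18 (GITR). Tnfrsf4 had log2 ratios of -1.57 and -1.36, and its median was 240 CPM against 1325 CPM. Cd38 was found at 10 reads in 2.94% against 21.9% of cells. Icos, the inducible costimulator, had -0.99 and -1.36 and missed the rule on p1, and 88.2% of Ccr7-expressing cells still had 10 reads of it. Ly6a, which interferons and activation induce, was at 2467 CPM in the median of Ccr7-expressing cells and 5391 CPM in the median of the others, with no cell of either group at 0.

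**Figure D2:**
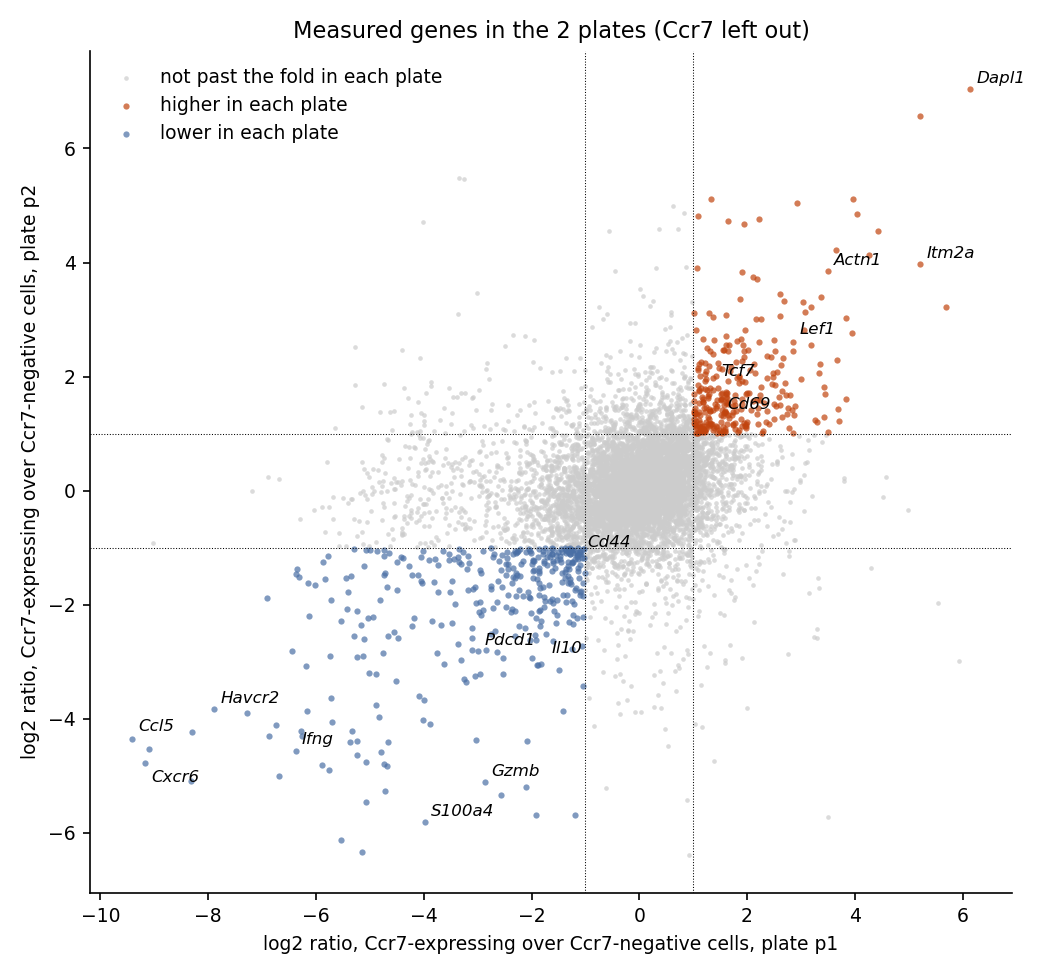
Log2 ratio of each measured gene (Ccr7-expressing over Ccr7-negative cells) on plate p1 (x axis) and plate p2 (y axis), with Ccr7 left out; orange genes are at least 1 and blue genes at most -1 on both plates (dotted lines). Dapl1 and Itm2a lie at the upper right and Ccl5, Cxcr6 and Havcr2 at the lower left, with Il10 and Pdcd1 among the lower genes.

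Over all genes, 290 of 8484 were higher in Ccr7-expressing cells on each plate, and the lower ones were more numerous (4.10%). Among genes read in 25% or more of the higher group on each plate, the 12 with the largest mean ratio were Ccr7, Dapl1, Actn1, Id3, Sesn1, Nsg2, Aff3, Itga6, Pdlim1, Mfhas1, Lef1 and Bcl2. Sesn1, a stress-induced inhibitor of growth signalling through mTORC1, had log2 ratios of 3.37 and 3.40 and 10 reads in 38.2% against 8.86% of cells. Aff3, a nuclear protein of transcription elongation, had 3.04 and 3.30 and 10 reads in 46.1% against 5.91% of cells. Itga6, an integrin chain that binds laminin, had 3.18 and 2.55. The ratios of Sesn1, Aff3 and Itga6 lay within 1 log2 unit of each other on the plates. For Bcl2 they were further apart, and the standard deviation over 3 sets of wells was 1.40. These sets were p2 and the wells of p1 in columns 1 to 12 or in columns 13 to 24, of which columns 1 to 12 held 7 Ccr7-expressing cells.

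The 12 with the largest ratio in the other direction were Cxcr6, Ccl5, Ccl4, Ccl3, Havcr2, Csf1, Ccr2, Ifng, Il18rap, Plek, Sv2c and S100a4. Cxcr6, a receptor of effector cells in tissue, ranged from 0 to 1355 CPM in Ccr7-expressing cells (median 0) and from 0 to 7670 CPM in the others (median 501.9). Its log2 ratio was -9.18 on p1 and -4.78 on p2, and 3.92% against 61.2% of cells had 10 reads. Plek, a cytoskeletal protein of activated blood cells, had -5.76 and -4.90 and 10 reads in 5.88% against 55.3% of cells. S100a4, a calcium-binding protein of motile effector cells, had -3.98 and -5.81 and 10 reads in 6.86% against 65.4% of cells. Each of the 12 reached 10 reads in at most 10.8% of Ccr7-expressing cells and in 26.2% to 65.4% of the comparison, which is itself not uniform.

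Il10 was lower in the Ccr7-expressing cells although all cells had been sorted for the reporter. It ranged from 0 to 4879 CPM (median 3.18) in Ccr7-expressing cells and from 0 to 20384 CPM (median 970) in cells without Ccr7 reads. The mean level was 570.8 against 1905 CPM on p1 and 225.5 against 1301 CPM on p2, giving log2 ratios of -1.74 and -2.52 (mean -2.13). At least 1 read of Il10 was found in 63.7% of Ccr7-expressing cells (53.6% to 73.02%) and in 93.2% of the comparison (89.3% to 96.1%), and at least 10 reads in 34.3% (25.2% to 44.4%) and 85.7% (80.5% to 89.9%). On p1 the shares with 10 reads were 36% and 84.3%, on p2 33.8% and 88.7%. The share of cells with the transcript was lower, and 37 Ccr7-expressing cells had no Il10 read. Among the 65 with a read the median was 41.2 CPM, against 1143 CPM among such cells of the comparison. On p1 these medians were 5.59 and 1296 CPM. With the groups limited to cells with an Il10 read, the log2 ratio of mean levels was -1.67. These medians and this ratio include cells with 1 to 9 reads, a larger part of the Ccr7-expressing cells with a read than of the comparison. They therefore do not separate level from share, and whether the level differed among cells with 10 or more reads was not tested.

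The size of the Il10 difference varied between sets of wells on p1. In columns 1 to 12, where only 7 Ccr7-expressing cells lay, the highest level of Il10 was 85.8 CPM and the log2 ratio -7.04. In columns 13 to 24, with 18 such cells, the highest was 4270 CPM and the ratio -1.25. Without columns 1 to 12 the mean over the plates was -1.89, so the direction did not rest on them.

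The reporter transcript eGFP went the same way. It ranged from 0 to 737 CPM (median 0) in Ccr7-expressing cells and from 0 to 2140 CPM (median 39.9) in the comparison, with log2 ratios of -2.08 on p1 and -1.89 on p2. A read of eGFP was found in 26.5% of Ccr7-expressing cells (18.2% to 36.1%) and in 63.7% of the others (57.2% to 69.8%). All 14 Ccr7-expressing cells with 10 reads of eGFP also had 10 reads of Il10, as had all such cells of the comparison. The sort read the fluorescent protein and not its transcript. When only cells with an Il10 read were compared, the median ratio of the transcription factors of quiescence was 1.08. When only cells with an eGFP read were compared, of which 27 expressed Ccr7, the Il10 ratio was -0.94.

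Some transcription factors that act on Il10 were lower as well. Of 14 measured, 4 were lower on each plate and none was higher, with a median log2 ratio of -0.72. These were Ahr (-3.68 on p1 and -2.35 on p2), Bhlhe40 (-3.48 and -2.31), Id2 (-2.16 and -1.84) and Prdm1 (-1.58 and -2.12). Prdm1 encodes Blimp-1, which drives effector differentiation and Il10 in T cells, and it had 10 reads in 17.6% of Ccr7-expressing cells and 63.3% of the comparison. Bhlhe40 is a repressor of Il10. Maf, an activator of Il10, had -0.45 and -1.09 and stood at 10 reads in 70.6% against 94.5% of cells. Irf4 and Egr3 had mean ratios of 0.46 and 0.47.

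The share of Ccr7-expressing cells with 10 reads of a co-inhibitory receptor gene ranged from nearly all (Lag3, Ctla4) over intermediate shares (Tigit) to few (Havcr2). Of 12 measured genes of co-inhibitory receptors and type 1 regulatory T cells, 7 were lower on each plate and none was higher, with a median log2 ratio of -1.68. Lag3 was found at 10 reads in 93.1% of Ccr7-expressing cells and 99.2% of the comparison, with medians of 804 and 2246 CPM and log2 ratios of -0.91 and -1.06. Ctla4 was likewise found in 91.2% and 97.9%, at medians of 604 and 2616 CPM, and its ratios of -2.05 and -1.86 put it among the lower genes. Tigit was in 71.6% against 97.5% of cells. Pdcd1, which encodes PD-1, ranged from 0 to 993 CPM (median 0) in Ccr7-expressing cells and from 0 to 7104 CPM (median 618) in the others, with ratios of -2.99 and -2.82. Havcr2 (TIM-3) had 10 reads in 3 Ccr7-expressing cells, all on p2, and in 38.8% of the comparison. Entpd1 and Lilrb4 were also lower, and reads of Lilrb4 may be shared with its close paralog.

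Btla and Cd200 went the other way in mean level without passing the rule, with log2 ratios of 0.49 and 0.83 for Btla and 0.94 and 0.83 for Cd200. BTLA is carried by resting lymphocytes. Of 5 receptor genes of this list (Pdcd1, Lag3, Tigit, Havcr2 and Itga2), each thinned to 160000 reads per cell, a Ccr7-expressing cell had on average 2.44 with a read on p1 (SD over cells 0.712) and 2.27 on p2 (0.837), against 3.33 (0.664) and 3.21 (0.735). The mean difference was 0.91 genes fewer per cell, and 1.20 fewer when 10 reads were required. Counted at 1 read or more, 42.2% of the Ccr7-expressing cells had 3 or more of the 5, and 88.6% of the comparison did. At 10 reads the shares were 21.6% and 80.2%. Itga2 added little, since at most 3.01% of the cells of any group and plate had 10 reads.

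**Figure D3:**
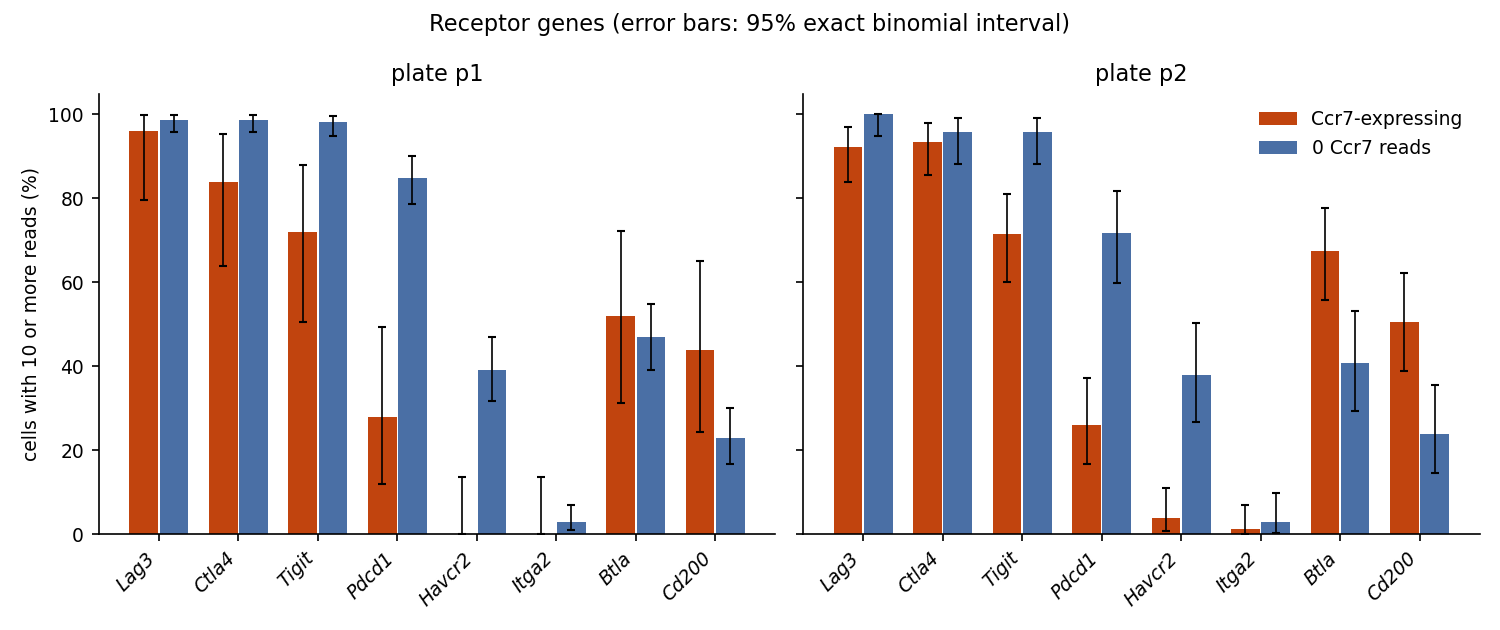
Share of cells with 10 or more reads of 8 receptor genes in Ccr7-expressing cells (orange) and cells with 0 Ccr7 reads (blue) on plates p1 and p2, as bars with 95% exact binomial intervals. Lag3 and Ctla4 stand high in both groups, Pdcd1 and Havcr2 are found in few Ccr7-expressing cells, and Btla and Cd200 stand as high or higher in them.

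Cytotoxic granule genes were lower in Ccr7-expressing cells. Of 13 measured, 9 were lower on each plate, none was higher, and all 13 had negative log2 ratios on both plates, with a median of -2.74. Gzmb (granzyme B) ranged from 0 to 4861 CPM in Ccr7-expressing cells and from 0 to 20218 CPM in the comparison, with ratios of -2.87 and -5.12. Gzmk had no read in the 25 Ccr7-expressing cells of p1, where the mean of the comparison was 76.7 CPM. So few cells set no lower bound on the fold, and none is given. Nkg7, a granule membrane protein, had 10 reads in 19.6% against 70.5% of cells and Prf1 (perforin) in 2.94% against 16.03%. Serpinb9, Serpinb6b and Serpinb6a, inhibitors of granule proteases, were among the lower genes, and reads of such close paralogs may be shared. The proteoglycan gene Srgn, whose product packs granules, had -0.41 and -0.76 and at least 10 reads in 99.02% and 100% of cells.

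A count of cells with any read would have hidden part of this. On p2, which also held the small intestine cells, 79.2% of Ccr7-expressing and 70.4% of comparison cells had 1 to 9 reads of Gzma, against 0% and 3.01% on p1. Gzmb had 1 to 9 reads in 74.03% of the Ccr7-expressing cells of p2 and 10 or more in 10.4%. The source of these low counts was not tested, and shares are therefore given at 10 reads unless stated otherwise.

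Chemokines and receptors of entry into inflamed tissue were lower as well. Of 10 measured genes for chemokines and other ligands, 5 were lower on each plate (Ccl1, Ccl3, Ccl4, Ccl5 and Csf1) and none was higher. The median log2 ratio was -2.49, or -3.13 with genes at 0 in a group set at a limit of 3 reads over that group. Ccl5 had 10 reads in 4.90% against 35.4% of cells, and Ccl3 and Ccl4, chemokines of inflammation, in 1.96% each against 32.5% and 33.8%. Of 16 tissue migration genes measured, 11 were lower, with a median of -2.67. These included the chemokine receptor genes Cxcr6, Ccr2, Ccr8 and Ccr6, and Lgals1, Lgals3, Anxa2, S100a4, S100a6 and Ahnak. Cxcr3, a receptor of Th1 and memory cells, did not go with them, with ratios of 0.49 and 0.39 and 10 reads in 52.9% against 49.4% of cells.

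Genes of helper subsets were mostly at lower levels. Of 10 measured Th1 genes, 4 were lower (Ifng, Il12rb2, Il18r1 and Il18rap), of 5 Th17 genes 3 (Rora, Ccr6 and Il1r1) and of 5 Th2 genes 2 (Il4 and Il1rl1), and none of these lists had a higher gene. Ifng had 10 reads in 4.90% against 46.4% of cells. Tbx21, the master regulator of Th1 cells, was found in 33.3% against 62.03% of cells, with ratios of -0.55 and -1.15. Among 9 follicular helper genes 1 was higher (Pou2af1) and 2 were lower (Tox2 and Il4). Cxcr5, the follicle homing receptor, had ratios near 0 (0.23 and -0.01), yet 10 or more reads in 51.96% of Ccr7-expressing cells and 27.4% of the comparison. Il21, the helper cytokine of follicular cells, was found in 29.4% against 62.03%. Among regulatory T cell genes other than Foxp3, which was 0 by choice of the cells, Gpr83 and Folr4 were higher and Ctla4, Tnfrsf4 and Tnfrsf18 were lower of 9 measured. Folr4 encodes folate receptor 4, which naive and anergic T cells also carry, and it had 10 reads in 92.2% against 78.1% of cells.

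Cells called S or G2M were a smaller share of the Ccr7-expressing ones. The cyclone classifier called 1 of 25 in S or G2M phase on p1 (4%, interval 0.101% to 20.4%) against 34 cells of the comparison (20.5%, 14.6% to 27.4%), and 17 of 77 on p2 (22.1%, 13.4% to 32.98%) against 25 of 71 (35.2%, 24.2% to 47.5%). The mean difference was -14.8 percentage points, and the intervals overlapped on each plate. None of 25 cell cycle genes passed the rule, while 21 had negative ratios on both plates and their median was -0.96. Mki67 had ratios of -2.10 and -0.61 and 10 reads in 25.5% against 40.1% of cells. With cells called S or G2M left out, 84 Ccr7-expressing cells remained, and the median ratio of the cytotoxic genes was -2.34.

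Ribosomal protein genes had ratios above 0 nearly throughout. Of 57 measured by the pattern of their names, which also takes in Rps19bp1, Rpl7l1 and Rps27l, 55 had positive log2 ratios on both plates, with a median of 0.79 on each (0.79 and 0.79), and only Rpl35 reached 1 on both. Together they took 1.56% to 4.72% of the reads of a Ccr7-expressing cell on p1 (median 2.95%) and 0.541% to 3.58% in the comparison (median 1.56%). On p2 the medians were 2.96% and 1.52%. Ribosomal protein genes have many pseudogenes, and whether reads shared with them entered the deposited counts is not stated. The study's methods restrict only its RPKM values to uniquely aligned reads. Glycolysis genes lay slightly below 0, with a median of -0.46 over 15, none past the rule, and Ldha at -0.58 and -0.50. Hif1a, the hypoxia regulator, had -0.74 and -0.92.

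Genes that respond to the T cell receptor within hours were not shifted as a list. The median of 18 was -0.03, with Cd69 higher and Rgs1 and Rgs2 lower. Fos, an immediate early gene, had 10 reads in 46.1% and 46.4% of cells, with ratios of 0.06 and -0.09. Myc, which drives growth, had 0.27 and 1.17. Rgs1, a brake on chemokine receptor signalling, had -2.37 and -2.09 and medians of 3.16 and 395.2 CPM.

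Interferon-stimulated genes were not shifted either, with a median of -0.09 over 20. Usp18 (2.998 and 1.96) and Ifit2 (1.604 and 1.36) were higher and Oasl2 was lower. Usp18 limits interferon signalling and had 10 reads in 25.5% against 8.44% of cells. The list divided by plate, with medians of 0.47 on p1 and -0.39 on p2.

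Among 18 survival and apoptosis genes Bcl2, Pim2 and Bbc3 were higher and 1 was lower. Pim2, a kinase that favours survival, had 1.65 and 1.51. Bbc3 encodes PUMA, which opposes BCL-2, and had 1.31 and 2.45 with 10 reads in 14.7% against 6.33% of cells. Of 16 receptors and regulators of gamma-chain and related cytokines, Ifngr1 alone passed the rule, being lower with -1.97 and -1.22. Il4ra had 1.92 and 0.70, and Il2rg, the shared chain itself, -0.21 on both plates.

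**Figure D4:**
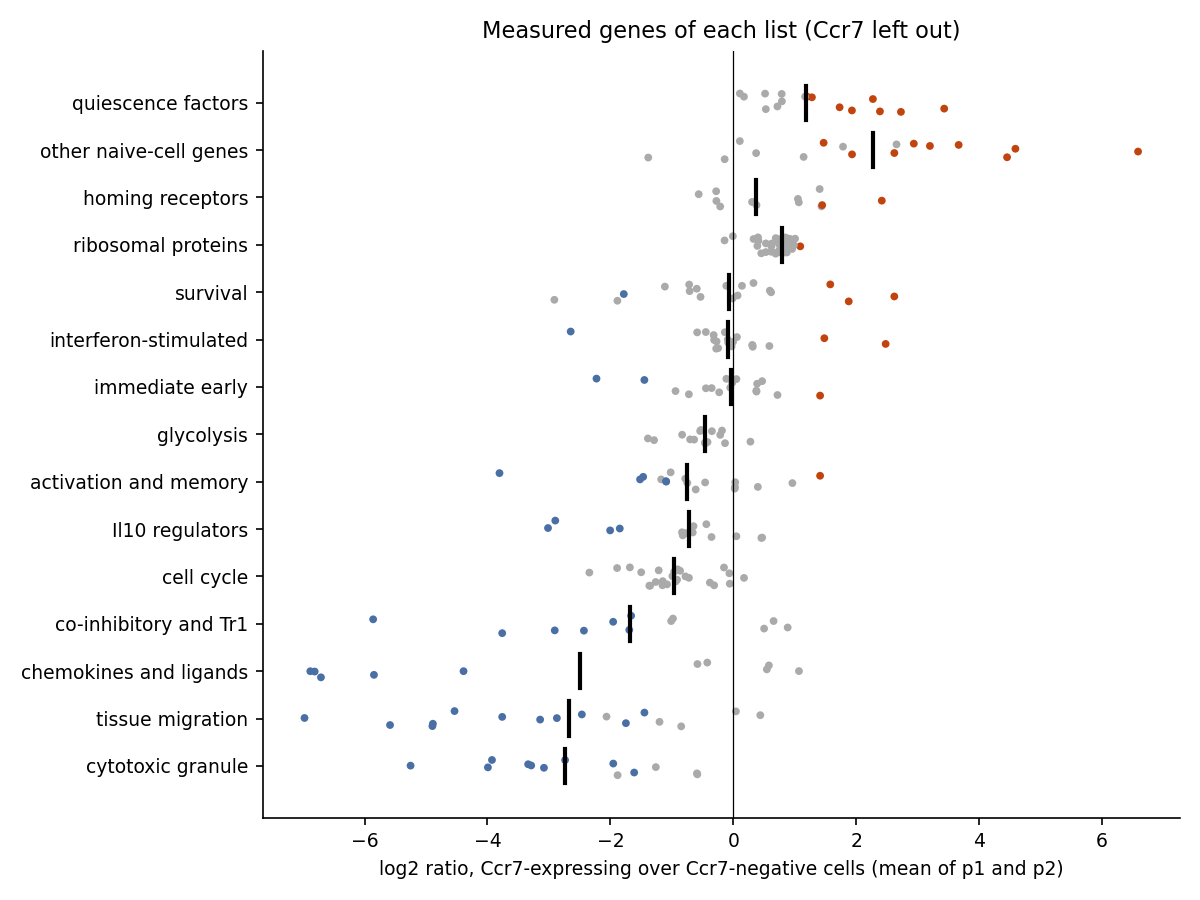
Log2 ratio (Ccr7-expressing over Ccr7-negative cells, mean of the plates) of each measured gene in 15 lists, with Ccr7 left out; orange genes are higher and blue genes lower on each plate, grey genes neither, and the black line is the median of the list. Quiescence and naive-cell genes lie to the right, ribosomal proteins close together near 0.79, and co-inhibitory, chemokine, tissue migration and cytotoxic genes to the left.

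The Ccr7-expressing cells were not uniform. Of 6 effector genes (Gzmb, Ccl5, Cxcr6, Prdm1, Id2 and Tbx21), 38 Ccr7-expressing cells had none at 10 reads, 29 had 1, 28 had 2, and 7 had 3 or more. In the comparison 69.2% had 3 or more. All but 1 of the 7 lay on p2, which held most Ccr7-expressing cells. They were 4% of the 25 Ccr7-expressing cells of p1 and 7.79% of the 77 of p2. The mean log2 level of the cytotoxic genes per cell was 0.94 to 3.52 in the Ccr7-expressing cells of p1 (median 2.33) and 0.93 to 6.55 on p2 (median 2.32), against medians of 3.82 and 4.50 in the comparison. Of the 9 Ccr7-expressing cells with 10 reads of Gzmb, 8 also had 10 reads of Tcf7, and of the 4 with Cxcr6, 3 had Tcf7. Among all Ccr7-expressing cells 93.1% had 10 reads of Tcf7.

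**Figure D5:**
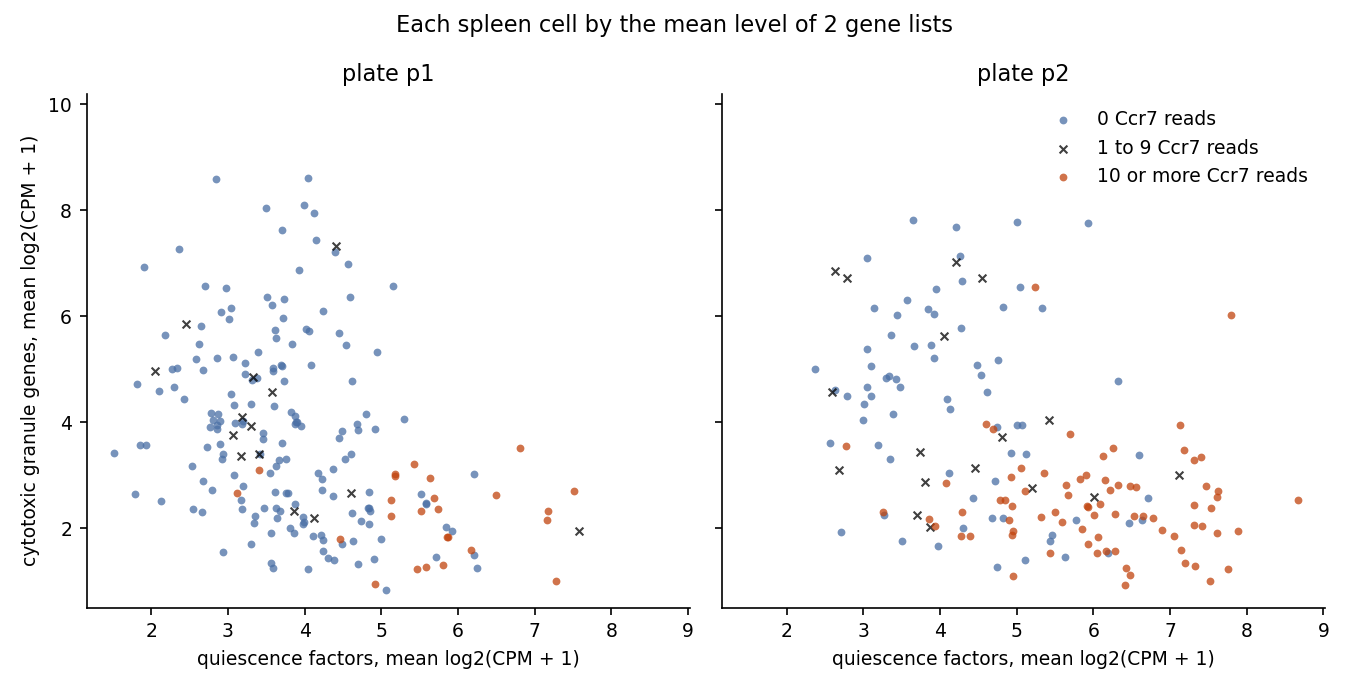
Each spleen cell placed by the mean log2(CPM + 1) of the measured quiescence factors (x axis) and of the measured cytotoxic granule genes (y axis) on plates p1 and p2, for cells with 10 or more Ccr7 reads (orange), 1 to 9 (crosses) and 0 (blue). Ccr7-expressing cells lie mostly at the lower right, and 2 of them on p2 lie above 6 on the y axis.

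Within the Ccr7-expressing cells, some cells had both Il10 and quiescence transcripts. Of the 35 with 10 reads of Il10, 31 also had 10 reads of Tcf7, beside 93.1% of all Ccr7-expressing cells. Across all Ccr7-expressing cells the level of Ccr7 went with lower Il10 (Spearman's rho of -0.37, and -0.35 and -0.36 within p1 and p2), lower Lag3 (-0.31) and lower Tigit (-0.29), and with higher Tcf7 (0.32). With Bcl2 and Bach2 rho was 0.01 and -0.01. These are descriptions over cells that share libraries of 2 plates, and Ccr7 itself chose the cells.

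Cells with other labels crossed this group in part. At 10 reads, 53 Ccr7-expressing cells also had Cxcr5, and 48 of them had Tcf7, beside 93.1% of all Ccr7-expressing cells. Among cells without Ccr7 reads, 65 had Cxcr5 and 42 of these had Tcf7, beside 30.8% of all cells without Ccr7 reads.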

How the data were processed

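Single IL-10eGFP+ CD4+ T cells from spleen and small intestine were sequenced with SMART-seq2. The authors aligned reads with STAR and deposited raw read counts per gene, 1 column per cell (764 columns, none unused). Their methods name genome build Mm8 and the submitters' processing notes mm10, so no position is given, and the tool behind the deposited counts is not given in the sources used here. The methods describe RPKM values, not used here, from uniquely aligned reads with the MULTo correction for mappability. The kit does not mark strand, and 88 of 23997 gene rows joined several genes.

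Of 574 spleen cells, 102 Ccr7-expressing cells (25 on p1, 77 on p2) were compared with 237 cells without Ccr7 reads (166 and 71). CPM was computed here from the deposited counts over gene rows without the reporter. A ratio was log2 of (mean CPM of Ccr7-expressing cells + 1) over (mean CPM of cells without Ccr7 reads + 1) within p1 and within p2, then averaged over the plates, and the pseudocount understates ratios of low genes. Spread was taken over 3 sets of wells. Cell cycle phase came from cyclone (scran 1.30.0), which found 635 of its 667 marker genes. Receptor genes per cell were counted after thinning each cell to 160000 reads. Intervals are 95% exact (Clopper-Pearson for shares, Poisson for summed reads). Amplified copies of 1 molecule are counted as separate reads, so that intervals cover counting error and nothing else. For a count of 0 the limit is 3 reads over the group, which does not cover whether a cell with the transcript was missed. With no animal labels, no test was made. Doublets were not called, because cells were sorted singly. The genes named were the markers of the label, Il10, eGFP, members of gene lists, and the 12 genes with the largest ratio each way that were past the fold on each plate and were read in 25% or more of the higher group on each. The cells, the lists and the rule were chosen with earlier results of these data known. Calculations used Python 3.11.15 with pandas 2.3.3 and R 4.3.3 and were tested on simulated data. Alternatives were other pseudocounts, scalings, filters, depths, thresholds and sets of cells. Results of 4 genes are not reported here, although counts over their lists include them.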

Additional observations from a re-analysis of the deposited data

Results flagged for a closer look

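Cells outside the comparison also carried Ccr7 reads. Among spleen cells with at least 160000 reads and a Foxp3 read, 13 (7.47%, interval 4.04% to 12.4%) had at least 10 reads of Ccr7. In these 13 cells Tcf7 had a median of 885 CPM and 10 reads in 76.9% of cells, against 8.44% of Foxp3-reading cells with 0 Ccr7 reads. Il10 had 10 reads in 38.5% against 96.8%, namely in 55.6% of the 9 cells on p1 and 0% of the 4 on p2. Cxcr6 and S100a4 reached 10 reads in none of the 13, and in 48.7% and 72.1% of those with 0 Ccr7 reads. Of 30 spleen cells with under 160000 reads, 8 had at least 10 reads of Ccr7. In the small intestine, 6 cells with at least 160000 reads had any read of Ccr7 (3.43%, interval 1.27% to 7.31%), with at most 33 reads, and 1 of 160 without Foxp3 reads had 10 or more (0.625%, interval 0.0158% to 3.43%).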

How the results depend on the processing

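The directions of Il10, eGFP, the receptor count, the S or G2M share and the medians of the transcription factors of quiescence and of the cytotoxic genes were the same under the 23 alternatives wherever each gave a value. The Il10 ratio ran from -4.96 (difference of mean logs) to -0.94 (cells with an eGFP read) and that of eGFP from -3.39 to -0.76. The share of measured genes past the rule depended on it, with 3.42% higher and 4.10% lower as reported. The shares were 6.94% and 6.98% with the plates pooled, 12.4% and 16.3% on p1 alone, 10.7% and 8.58% on p2 alone, 1.77% and 2.51% with a pseudocount of 10 CPM, 2.11% and 2.12% with cells of 1 or more Ccr7 reads, and 2.25% and 2.96% at a mean of 50 CPM or more. The higher share was 1.62% over 3 sets of wells and 2.25% with mean logs. The lower share was 7.74% in eGFP-read cells and 4.57% without a filter, where 705 genes were lower. Pooling also gave -7.25 points for S or G2M and -1.86 for the cytotoxic median, which was -1.88 with a pseudocount of 10 CPM, -1.39 with mean logs and -1.63 with cells of 1 or more Ccr7 reads. The quiescence median was 1.06 over 3 sets, 1.81 with mean logs, 1.37 in cells of 300000 reads or more, 0.87 with cells of 1 or more Ccr7 reads, 1.02 without S or G2M cells and 0.84 in eGFP-read cells. The receptor difference was -0.68 with cells of 1 or more Ccr7 reads, -0.62 in eGFP-read cells and -1.20 at 10 reads. In eGFP-read cells 4 genes changed sign, namely Gpr83 (-2.62), Igfbp4 (-0.51), Pdlim1 (-0.56) and Treml2 (-1.40), and the cause was not tested. Leaving out p1 columns 1 to 12 and counting receptors at 10 reads were chosen after seeing the data. No paired analysis was possible because the labels give no animal. Depth limits genes at 1 to 9 reads, for which absence cannot be told from low level.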

Other observations

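The 31 spleen cells with 1 to 9 Ccr7 reads were close to the cells without Ccr7 reads in the shares for Il10, Tcf7, Cxcr6 and Pdcd1. Il10 had 10 or more reads in 80.6% of them, against 34.3% of Ccr7-expressing cells and 85.7% of cells without Ccr7 reads. The corresponding shares were 25.8%, 93.1% and 30.8% for Tcf7, 61.3%, 3.92% and 61.2% for Cxcr6, and 80.6%, 26.5% and 81.01% for Pdcd1. Of these 31 cells, 21 had 3 or more of the 6 effector genes at 10 reads (67.7%). Another 2 values were further from the cells without Ccr7 reads. In 6 of the 31 (19.4%), 3 or more of the 5 markers besides Ccr7 were found, against 8.86% of cells without Ccr7 reads. Cells called S or G2M were 35.5% of them (interval 19.2% to 54.6%), against 24.9% (19.5% to 30.9%). These values were compared after the cells had been seen, and no test was made.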
